A study of Mus musculus with 22 samples.

Results

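miR-126 and miR-146b are small RNAs that are often read as signs of blood vessels and of inflammation in a tissue. miR-126 is transcribed with its host gene Egfl7 in endothelial cells, where its 3p arm is known to repress Spred1 and Pik3r2, which restrain VEGF signalling. miR-146a and miR-146b are induced through NF-kappaB and repress Irak1 and Traf6, adaptors of Toll-like and interleukin-1 receptor signalling, and in brain they are found in microglia and astrocytes among other cells. The rows mmu-miR-126-3p and mmu-miR-146b-5p (miR-126-3p and miR-146b-5p from here on) were taken by name from the deposited miRNA tables, 2 of 172 listed miRNAs. Both reached a CPM (reads scaled to a common library total) of 1 in at least 5 libraries of each nucleus, as did all 172.

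Small RNA was sequenced from laser-captured arcuate (ARC) and paraventricular (PVH) nuclei of the hypothalamus of wild-type C57bl6J male mice, 8 weeks old and fed chow after weaning. Off-C mice were born to lean dams on chow, and Off-Ob mice to dams made obese on a high-fat diet with sweetened condensed milk before and through pregnancy and lactation, so the maternal groups differ in both maternal diet and maternal weight. Each nucleus had 6 Off-C and 5 Off-Ob libraries, 22 in all from 12 mice, of which 10 (6 Off-C and 4 Off-Ob) gave both nuclei. The study's methods take 1 male per litter for an experiment, and nothing in the labels links a library to its litter.

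The sequences of both miRNAs are shown because of their seeds. Among the listed miRNAs with a sequence at hand, the first shares its seed with no other and the second with exactly 1. They are RefSeq mature sequences (GRCm38.p6), 5′ to 3′, with the seed (bases 2 to 8) in capitals. Of the 172 names 149 matched an entry, and the seeds of the rest, miR-126-5p among them, were not compared. The tables' miR-126-3p is RefSeq's miR-126a-3p, and miR-126-5p is listed in the tables as well.
miR-126-3p: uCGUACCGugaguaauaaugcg
miR-146b-5p: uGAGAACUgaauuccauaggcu
miR-146a-5p: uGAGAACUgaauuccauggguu
miR-146b-5p and miR-146a-5p share the seed GAGAACU and 20 of 22 bases. Counted from the 5′ end, with the base of miR-146a-5p first, they differ by G18A and U21C. A read must therefore reach base 18 to tell them apart, and how the authors assigned reads that fit both is not given in the sources used here, so the split between the miR-146 pair is less certain than their sum.

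The arm of each hairpin that the tables count is set in capitals in the precursors below, which show that miR-126-3p comes from the second arm and miR-146b-5p from the first.
Mir126a: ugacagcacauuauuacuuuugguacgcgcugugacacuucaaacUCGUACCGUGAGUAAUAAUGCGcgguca
Mir146b: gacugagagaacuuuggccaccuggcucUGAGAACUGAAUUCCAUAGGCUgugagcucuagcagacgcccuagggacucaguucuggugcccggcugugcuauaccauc
Mir126a lies at chr2:26591357-26591429 on the plus strand (GRCm38). It falls in an intron of 8 of the 9 Egfl7 transcripts that span it and in an exon of the remaining 1, which GENCODE calls a retained intron. Mir126b is annotated on the opposite strand of the same stretch. Mir146b lies at chr19:46342762-46342870 on the plus strand, in an intron of the 1 Mfsd13a transcript that spans it. miR-146a-5p comes from another chromosome, from Mir146 at chr11:43374397-43374461 on the minus strand, in no other annotated gene.

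The authors' log2 values gave back whole reads for all 3784 entries (within 0.01 of a whole read), 22680 to 91790 reads per ARC library and 22495 to 61476 per PVH library. The ARC libraries of the Off-Ob mice F42A and F6A stood apart. let-7 members took 79.1% of the reads of F42A and 64.2% of those of F6A, against 33.8% to 46.8% in the other 9 ARC libraries and 30.5% to 42.6% in the PVH. F42A also had the fewest ARC reads, and 20 miRNAs were at 0 reads in it. Neuronal miRNAs were present (10 of 12 listed), although miR-124-3p, abundant in neurons, averaged only 7.27 reads per ARC library and 15.2 per PVH library. For maternal group within a nucleus the deposited values were used. Between nuclei plain CPM (the share of the library's reads, unscaled) was used, because the authors' scale factors were set within each table. The correlations below, and the rankings made from them, were on plain CPM as well, also within a nucleus. Reads carry no molecular identifiers, so intervals on shares cover counting error only.

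miR-126-3p gave the smaller part of the reads of its hairpin in these libraries. It had 580 reads over the 22 libraries against 12991 for miR-126-5p, and it ranked 92 of 172 by mean plain CPM where miR-126-5p ranked 15. Outside these data the 3p arm is the one usually described as dominant in endothelial cells. Whether library preparation and mapping counted both arms equally was not tested, so the reads do not give the relative amounts of the arms. miR-146b-5p and miR-146a-5p were closer, with 1877 and 1385 reads and ranks 54 and 61. The depth behind miR-126-3p was therefore low, a mean of 17.3 reads per ARC library and 35.5 per PVH library, where miR-146b-5p had 84.5 and 86.2.

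In the ARC of Off-C mice, miR-126-3p had 3 reads at the lowest (RC12A), 21.5 at the median and 31 at the highest. Among the 5 Off-Ob ARC libraries it had 7 reads in F6A, 29 in F12A, 16 in F13A, 25 in F41A and 1 in F42A. In the PVH it had 9, 31.5 and 60 reads at the lowest, median and highest of Off-C mice. All 5 Off-Ob PVH libraries had more than 20, with 44 in F12A, 23 in F13A, 41 in F14A, 41 in F41A and 43 in F42A. The lowest libraries were thus ARC libraries of both maternal groups, and in F42A and RC12A the counts were no higher than 3, the reads that a count of 0 would still allow. The 3 reads of RC12A are 0.00724% of its ARC total (95% Wilson interval 0.00246% to 0.0213%). The single read of F42A is 0.00441% of its total (0.000778% to 0.0250%), and the PVH library of the same mouse had 0.167% (0.124% to 0.224%).

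For miR-146b-5p the ARC libraries of Off-C mice held 65, 75.5 and 112 reads at the lowest, median and highest. The Off-Ob ARC libraries held 74 in F6A, 103 in F12A, 87 in F13A, 150 in F41A and 15 in F42A. In the PVH, Off-C mice had 42, 70 and 105 reads, and Off-Ob mice had 127 in F12A, 53 in F13A, 120 in F14A, 157 in F41A and 65 in F42A. Counts do not allow for depth, and the levels that do are given next.

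**Figure D1:**
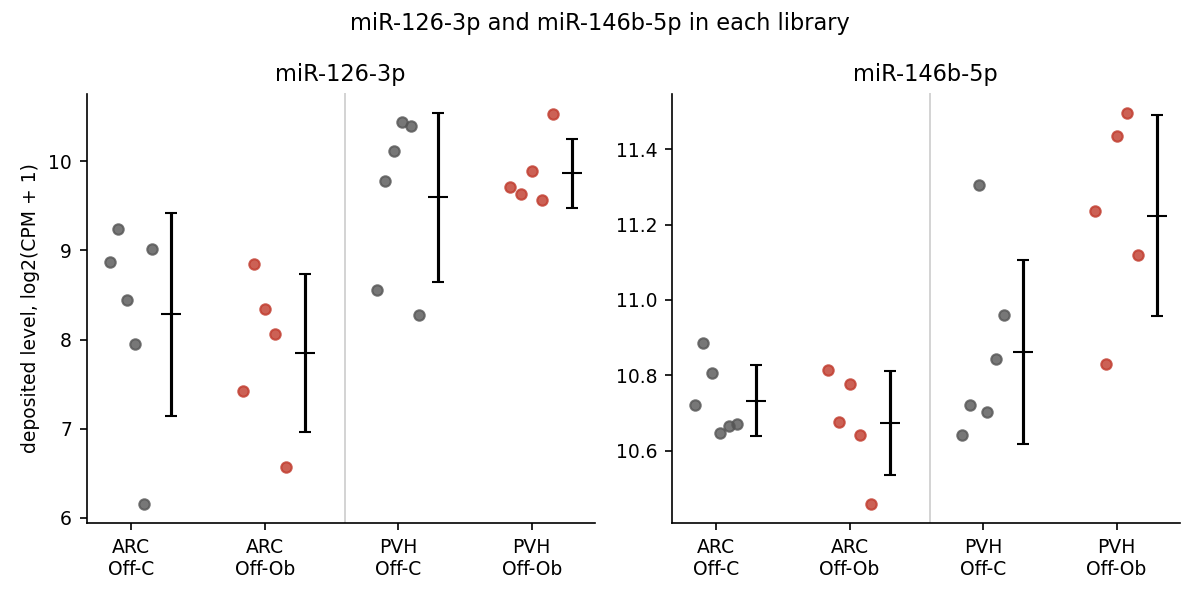
Deposited level, log2(CPM + 1), of miR-126-3p and miR-146b-5p in each library (points), by nucleus and maternal group, with the group mean and SD (black). Off-C and Off-Ob overlap in every panel, miR-126-3p spreads over more than 3 log2 units in the ARC of Off-C mice, and the 2 nuclei were scaled separately by the authors.

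Maternal obesity was not followed by a detectable change of miR-126-3p in either nucleus. In the ARC its deposited level was 8.28 ± 1.13 in Off-C (SD, n = 6) and 7.85 ± 0.88 in Off-Ob mice (SD, n = 5) on the log2(CPM + 1) scale. The log2 difference was -0.43 (SE 0.58, 95% interval -1.70 to 0.84, limma adjusted p = 0.70), and the exact two-sided permutation p was 0.49. The median difference of all 172 miRNAs was -0.16, so miR-126-3p lay 0.27 below it. Leaving out single libraries moved it from -0.86 (without RC12A, unadjusted p = 0.083, adjusted p = 0.46) to -0.11 (without F42A). The sign rests on the pair of libraries that stood apart: without F42A and F6A the difference was 0.14 (limma adjusted p = 0.99). In the PVH the level was 9.59 ± 0.95 in Off-C (SD, n = 6) and 9.86 ± 0.39 in Off-Ob mice (SD, n = 5), a log2 difference of 0.27 (SE 0.38, 95% interval -0.55 to 1.09, limma adjusted p = 0.98, exact permutation p = 0.56). The Off-C libraries RC5A and RC13A were the lowest, and without RC13A alone the difference was 0.0049.

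miR-146b-5p varied far less in the ARC and did not pass the test there. Its ARC level was 10.73 ± 0.095 in Off-C (SD, n = 6) and 10.67 ± 0.14 in Off-Ob mice (SD, n = 5). The log2 difference of -0.059 had an SE of 0.15 and a 95% interval of -0.39 to 0.28 (limma adjusted p = 0.86, exact permutation p = 0.45). Its size and sign turned with the scaling, -0.42 by plain CPM (where the median of all miRNAs was -0.52), 0.040 by median-ratio size factors and 0.025 after quantile normalization.

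In the PVH miR-146b-5p was the miRNA with the smallest unadjusted p of all 172 for maternal group, but it did not pass the adjusted threshold. Its level was 10.64, 10.78 and 11.30 at the lowest, median and highest Off-C library. It was 11.24 in F12A, 10.83 in F13A, 11.43 in F14A, 11.50 in F41A and 11.12 in F42A. The groups overlapped: 2 of 5 Off-Ob libraries lay above every Off-C library, and 4 of 5 above the Off-C mean, with RC9A the high Off-C library and F13A the low Off-Ob one. The log2 difference was 0.36 (SE 0.18, 95% interval -0.033 to 0.75), a 1.28-fold higher level, with an unadjusted limma p of 0.070, an adjusted p of 0.98 and an exact two-sided permutation p of 0.052 (n = 6 and 5). Leaving out single libraries gave 0.29 to 0.46.

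These results stand against a background with no calls. At the adjusted threshold of 0.05, limma called 0 of the 172 miRNAs for ARC (0.0%) and 0 for PVH (0.0%). Before adjustment, p was under 0.05 for 10 in the ARC (5.81%) and for 0 in the PVH (0.0%). limma-voom on the recovered reads gave 18 and 0 before adjustment and 0 after it. Neither miR-126-3p nor miR-146b-5p was among the 10. The hairpin and seed partners were not called either: miR-126-5p differed by -0.19 (SE 0.35) in the ARC and -0.14 (SE 0.24) in the PVH, and miR-146a-5p by -0.075 (SE 0.27) and -0.034 (SE 0.22).

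Between the nuclei, both arms of miR-126 were higher in the PVH. By limma on plain CPM with the mouse as a block, miR-126-3p was 3.21-fold higher there (ARC minus PVH -1.68 on the log2 scale, SE 0.45, 95% interval -2.61 to -0.75, adjusted p = 0.012). miR-126-5p was 2.17-fold higher in the PVH (-1.12, SE 0.24, 95% interval -1.61 to -0.63, adjusted p = 0.0019). Of the 172 miRNAs, 34 passed in this direction (19.8%) and 3 in the other (1.74%), and the median of all miRNAs was -0.38, so most of the table was lower in the ARC. On reads simulated for the maternal groups within a nucleus, this scale gave more false calls than the adjusted threshold allows when miRNAs of any abundance were changed. The nucleus comparison itself was not simulated. Leaving out RC11A gave 22 calls and leaving out RC12A 20 in place of the 37. Against that median miR-126-3p lay 1.30 and miR-126-5p 0.74 further down. By size the difference of miR-126-3p ranked 10 of 172 from the lowest.

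Mouse by mouse the 5p arm was the steadier of the pair. miR-126-5p had the higher plain CPM in the PVH in 10 of 10 mice, by a log2 difference between -1.83 (F42A) and -0.021 (RC11A), median -1.12 (exact sign-flip permutation p = 0.0020, the smallest that 10 mice allow). miR-126-3p was higher in the PVH in 8 of 10 mice (exact sign-flip permutation p = 0.033). It went the other way in the Off-C mice RC5A (564 CPM in the ARC, 356 in the PVH) and RC13A (625 and 276). Without F42A and F6A the miR-126-3p difference was -1.14 and no longer passed (limma adjusted p = 0.055), the median of all miRNAs then being -0.18, whereas miR-126-5p gave -0.995 (adjusted p = 0.0032).

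**Figure D2:**
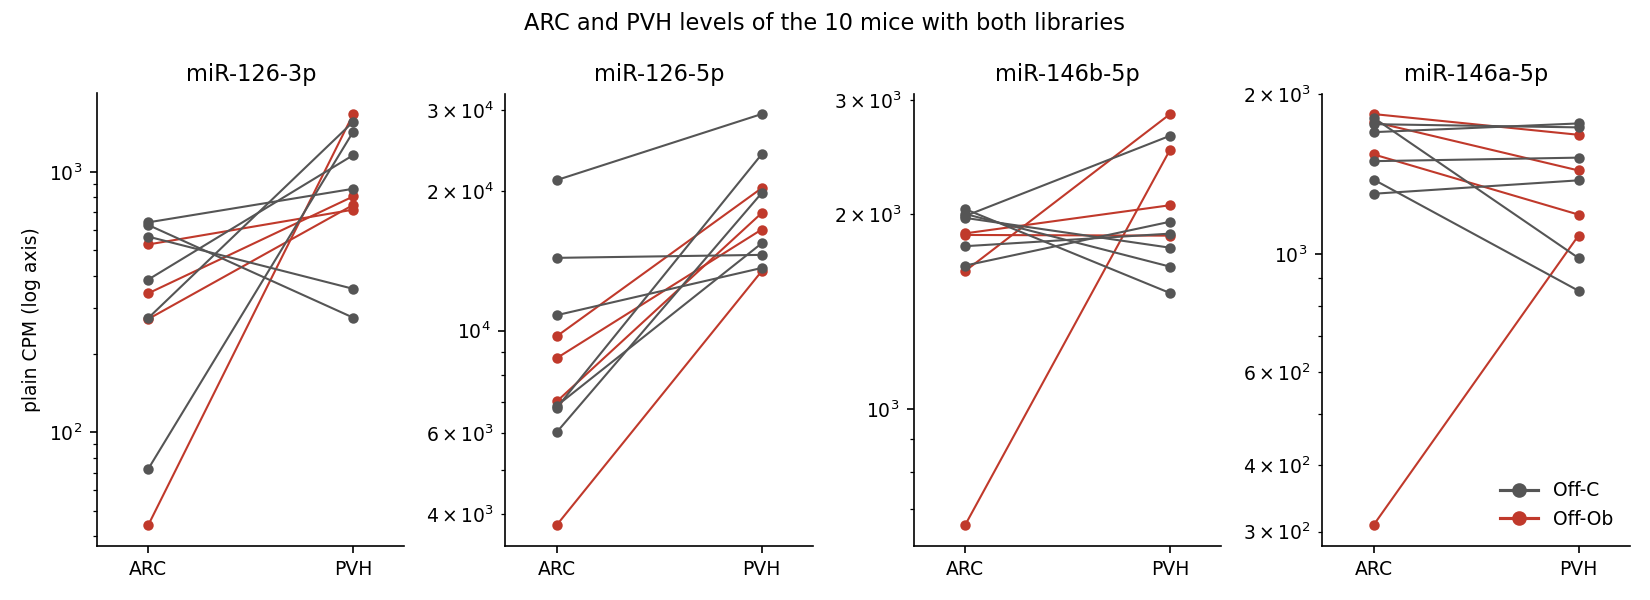
Plain CPM (log axis, its range set per panel) in the ARC and PVH of the 10 mice with both libraries, 1 line per mouse. miR-126-5p rises towards the PVH in 10 of 10 mice and miR-126-3p in 8 of 10, while miR-146b-5p does so in 6 of 10 and miR-146a-5p in 4 of 10.

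miR-146b-5p did not differ between the nuclei beyond its error. The log2 difference was -0.36 (SE 0.18, 95% interval -0.72 to 0.014, limma adjusted p = 0.14), almost the median of all miRNAs. It was higher in the PVH in 6 of 10 mice (exact sign-flip permutation p = 0.26), and without F42A and F6A the difference was -0.19. miR-146a-5p was as high in the ARC as in the PVH by its mean, 0.054 (SE 0.27, 95% interval -0.50 to 0.61, limma adjusted p = 0.88). All ARC libraries share a column prefix that differs from the prefix of all PVH libraries. What the prefix stands for is not given, and its part cannot be told apart from that of the nucleus. In bulk tissue fewer cells of a type and less RNA per cell cannot be told apart either.

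Taken by maternal group, the nucleus difference of miR-126-3p was -1.16 in Off-C (SE 0.61, limma adjusted p = 0.46) and -2.21 in Off-Ob mice (SE 0.66, adjusted p = 0.024). For miR-146b-5p it was 0.025 in Off-C (SE 0.24, adjusted p = 0.98) and -0.74 in Off-Ob mice (SE 0.26, adjusted p = 0.048), beside a median of all miRNAs of -0.12 in Off-C and -0.70 in Off-Ob. Over all miRNAs 5 of 172 passed as lower in the ARC in Off-C (2.91%) and 32 in Off-Ob mice (18.6%). The Off-Ob calls were not stable. Without F42A the values were -1.51 for miR-126-3p (adjusted p = 0.13) and -0.46 for miR-146b-5p (adjusted p = 0.21), and only 6 miRNAs passed in either direction in place of 36. The call of miR-126-3p was also lost without F6A (-2.09, adjusted p = 0.075) or F14A (-2.21, adjusted p = 0.0504), and that of miR-146b-5p in 10 of the 12 fits that left out 1 mouse (-0.92 to -0.46 over the 12). The difference between those differences did not pass. The interaction was -1.05 for miR-126-3p (SE 0.90, limma adjusted p = 0.54) and -0.76 for miR-146b-5p (SE 0.36, unadjusted p = 0.044, adjusted p = 0.54), beside a median of -0.51 over all miRNAs. None of the 172 miRNAs passed by limma (0.0%) or limma-voom, and 7 had an unadjusted p under 0.05 (4.07%), miR-146b-5p among them. Permuting the maternal group over the 10 mice with both nuclei gave an exact p of 0.10 for miR-146b-5p and 0.52 for miR-126-3p. Without F42A and F6A the interaction was -0.43 for miR-146b-5p and 0.029 for miR-126-3p, and 0 miRNAs had an unadjusted p under 0.05.

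The share of the 3p arm among all miR-126 reads was then examined, a comparison inside a library that its total reads and scale factor cannot move. It was chosen after the values were seen. In the ARC the share was 7.65% in RC5A and 9.40% in RC13A, against 1.88% in RC11A (95% Wilson interval 1.02% to 3.42%) and 0.667% in RC12A (0.227% to 1.94%). In the PVH the same mice took other places, with 1.46% in RC5A (0.944% to 2.24%) and 1.37% in RC13A (0.722% to 2.58%), against 9.64% in RC11A (7.01% to 13.1%) and 9.45% in RC12A (7.41% to 11.97%). F42A moved from 1.15% in the ARC (0.203% to 6.23%) to 11.03% in the PVH (8.29% to 14.5%). RC5A, RC13A, RC11A, RC12A and F42A are named because they were the highest and lowest. RC9A, by contrast, had 5.32% in the ARC and 6.98% in the PVH. Per-mouse differences and the mouse block rest on the mouse names in the deposited identifier sheet. Whether those names are right in both nuclei was not tested. The fit without the mouse block gave -1.68 for miR-126-3p as well. That value is a difference of group means and hardly depends on the names, so it cannot check them. No difference between groups was called: the log2 ratio of 3p to 5p reads differed by -0.24 between Off-Ob and Off-C in the ARC, by 0.41 in the PVH and by -0.46 between the nuclei, with exact permutation p-values of 0.76, 0.55 and 0.51.

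**Figure D3:**
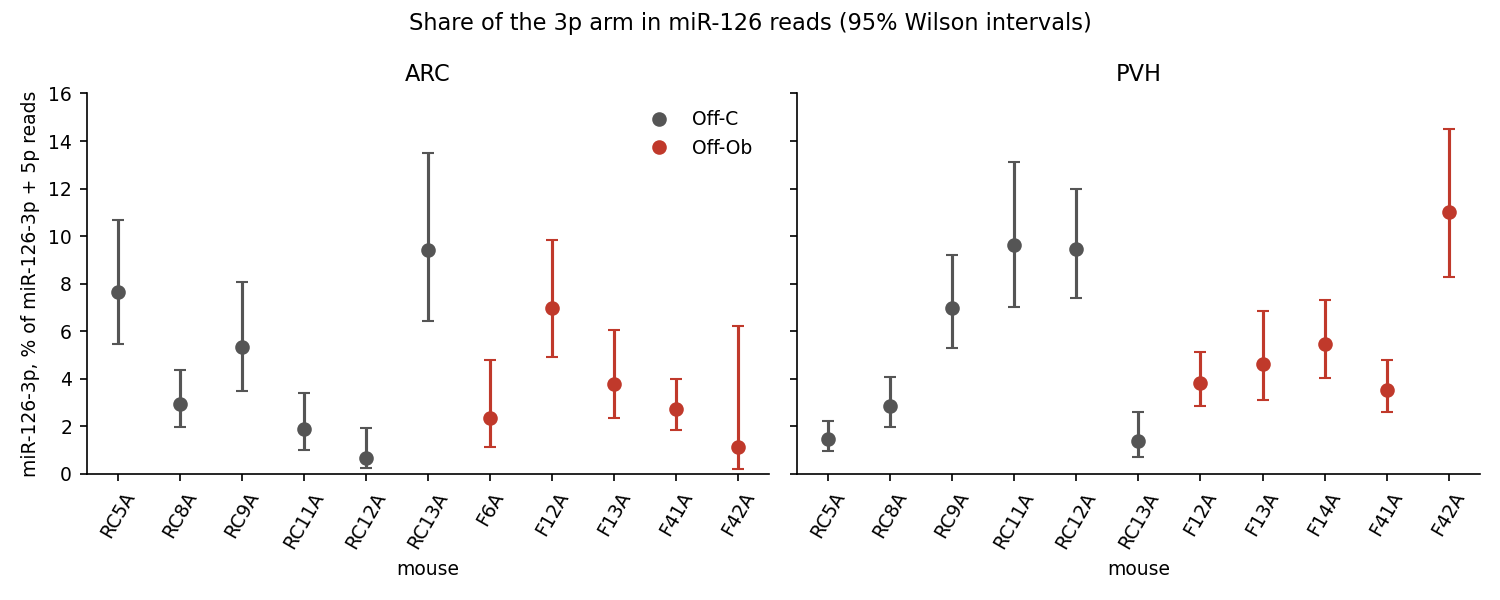
Reads of miR-126-3p as a percent of all miR-126 reads in each library, ARC left and PVH right, with 95% Wilson intervals. RC5A and RC13A are high in the ARC and low in the PVH, and RC11A, RC12A and F42A are low in the ARC and high in the PVH.

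For the miR-146 pair the same kind of ratio was much tighter. miR-146b-5p made up 47.9% (F41A) to 68.2% (F42A, 22 reads of the pair) of the pair in the ARC and 51.9% (RC11A) to 71.4% (F14A) in the PVH. The log2 ratio of miR-146b-5p to miR-146a-5p was 0.30 in the ARC and 0.61 in the PVH over the 10 mice with both libraries. It was lower in the ARC in 9 of 10 mice, with a mean difference of -0.32, an exact sign-flip permutation p of 0.016 and an adjusted p of 0.094 over the 6 ratio comparisons, so it did not pass. Between the maternal groups it differed by 0.39 in the PVH (exact permutation p = 0.12), where 3 of 5 Off-Ob libraries lay above every Off-C library, and by 0.015 in the ARC (exact permutation p = 0.94).

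Whether the members move together from library to library was asked in 8 correlations, 4 of them added after the data were seen, with Benjamini-Hochberg adjustment over the 8. In the ARC, miR-126-3p and miR-146b-5p rose together on log2(plain CPM + 1), with Pearson's r = 0.813 (permutation p = 0.00025, adjusted p = 0.0020, n = 11) and Spearman's rho = 0.909 (permutation p = 0.00029, adjusted p = 0.0023). Dropping F42A and RC12A, which lay farthest from the median of miR-126-3p, gave r = 0.896, and dropping F42A and F6A gave 0.788. On the deposited values, which carry the authors' scale factor, r was 0.531 (permutation p = 0.096, adjusted p = 0.19, n = 11), and 0.119 without RC12A and F42A. The plain CPM of both members share the library total, whose part in the relation was not tested. The permutation p compares r with 0 and not with the r of other miRNAs. By mean r over both nuclei miR-146b-5p ranked 42 of 109 miRNAs for likeness to miR-126-3p (0.627, beside a median of 0.378). The relation was thus not particular to this pair. Restricted to the 6 Off-C mice, r reached 0.937 (exact permutation p = 0.017, adjusted p = 0.077) but was 0.131 with RC12A and RC11A dropped. The Off-Ob libraries were too few for a value of their own.

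**Figure D4:**
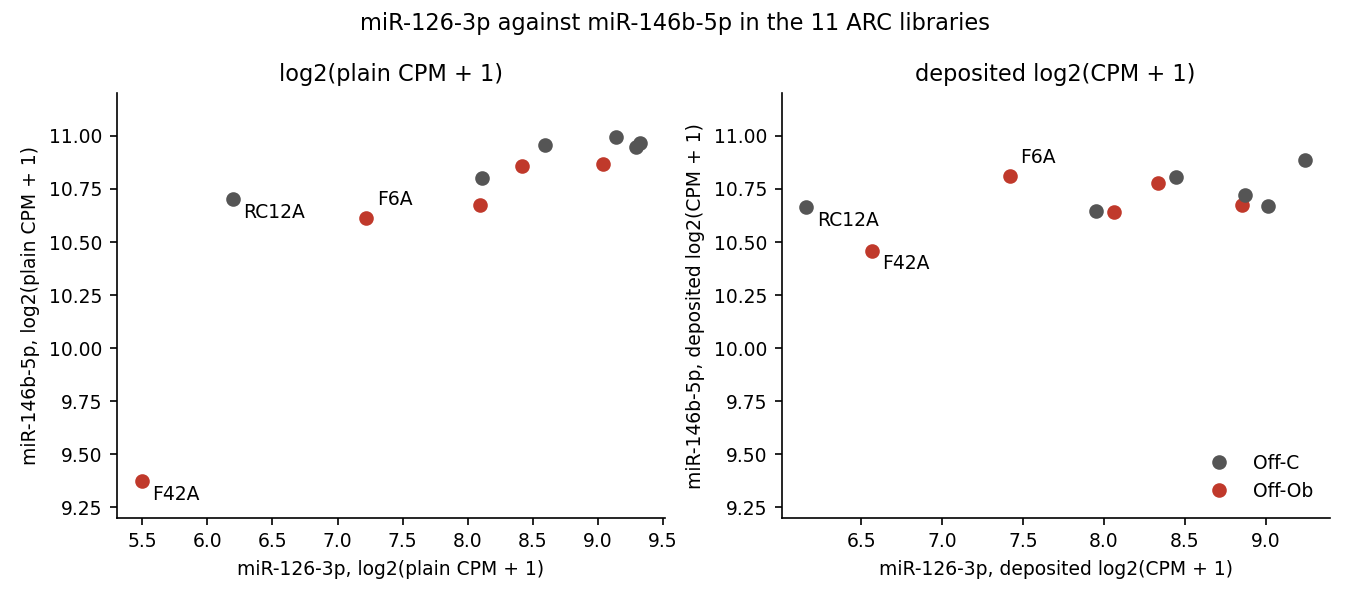
miR-146b-5p against miR-126-3p in the 11 ARC libraries, on log2(plain CPM + 1) at left (r = 0.813) and on the deposited log2 values at right (r = 0.531). F42A lies far below the other libraries at left and close to them at right.

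In the PVH no relation of miR-126-3p with miR-146b-5p was seen, with r = 0.440 (permutation p = 0.18, adjusted p = 0.27, n = 11), rho = 0.364 (permutation p = 0.27) and r = -0.0197 without RC13A and RC5A. The arms of miR-126 ran against each other there, with r = -0.640 (permutation p = 0.034, adjusted p = 0.077, n = 11) while Spearman's rho was -0.809 (permutation p = 0.0040, adjusted p = 0.016). Without RC13A and RC5A r was -0.663. Of the pair of coefficients only rho passed. In the 6 Off-C libraries r was -0.579 (exact permutation p = 0.23). In the ARC the arms gave r = 0.356 (permutation p = 0.28, n = 11) and rho = 0.145 (permutation p = 0.67), and r = 0.142 without F42A and RC12A.

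miR-146b-5p and miR-146a-5p gave r = 0.934 in the ARC (permutation p = 0.039, adjusted p = 0.077, n = 11) with rho = 0.264 (permutation p = 0.43). This rested on F42A and F6A, without which r was -0.285. In the PVH r was 0.263 (permutation p = 0.43, n = 11), rho was 0.327 (permutation p = 0.33), and r was 0.420 without F41A and F14A. The nuclei of the same mouse gave no relation past the adjusted threshold. For miR-126-3p the ARC and PVH levels gave r = -0.698 (permutation p = 0.026, adjusted p = 0.077, n = 10), with a rho of -0.673 (permutation p = 0.039, adjusted p = 0.095). Dropping F42A and RC12A gave r = -0.646. For miR-146b-5p they gave r = -0.459 (permutation p = 0.20, adjusted p = 0.27, n = 10), with a rho of -0.648 (permutation p = 0.047, adjusted p = 0.095). Dropping F42A and F41A gave r = -0.175.

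The miRNAs whose levels over the libraries were most like each member were found among the 109 others with a mean of at least 20 reads, by the mean of the Pearson r within the ARC and within the PVH (11 libraries each, log2 plain CPM). For miR-126-3p these were miR-410-3p (mean r 0.905), miR-380-3p (0.856), miR-30a-3p (0.852), miR-322-5p (0.841) and miR-324-3p (0.838). None of these 5 is on the vessel list, and miR-126-5p ranked 86 of 109 (ARC r = 0.356, PVH r = -0.640). The other 6 vessel miRNAs with enough reads ranked 10 (miR-222-3p), 21 (miR-143-3p), 27 (miR-27a-3p), 45 (miR-296-5p), 55 (miR-130a-3p) and 64 (miR-24-3p). For miR-146b-5p the nearest were miR-136-3p (mean r 0.797), miR-541-5p (0.783), miR-128-3p (0.773), miR-30c-5p (0.749) and miR-134-5p (0.746), with miR-146a-5p at rank 35 and miR-126-3p at rank 28. The median mean r over the 109 was 0.378 for miR-126-3p and 0.465 for miR-146b-5p, and all points share the library total.

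The other vessel miRNAs showed no maternal difference either. Of 18 listed vessel miRNAs 10 were measured, among them miR-143-3p of smooth muscle, miR-24-3p, and miR-23a-3p and miR-27a-3p, which are made from 1 cluster. For maternal group 0 of 10 passed in either nucleus, with a median difference of -0.31 (ARC) and 0.14 (PVH) beside -0.16 and 0.048 for all 172. Between nuclei 2 of 10 were higher in the PVH past the adjusted threshold, the arms of miR-126, a share like the 19.8% of all 172 miRNAs. The other 8 ranged from miR-92a-3p (-1.53, SE 0.75, limma adjusted p = 0.14) to miR-296-5p (0.078, SE 0.17, adjusted p = 0.76), and the median of the 10 was -0.47, beside -0.38 for all miRNAs. miR-24-3p, at a median of 20014 plain CPM in the ARC and 19610 in the PVH, gave 0.026 (SE 0.16).

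Of 12 listed inflammation and innate immunity miRNAs 7 were measured, and none differed between the maternal groups. Their median was -0.075 in the ARC and -0.034 in the PVH. Between nuclei 1 of 7 passed, miR-150-5p, an miRNA of mature lymphocytes, which was higher in the PVH (-2.12, SE 0.31, limma adjusted p = 1.2e-04). That count is no more than the 19.8% called over the whole table. miR-21a-5p, widely induced in inflammation, gave -0.77 (SE 0.84) and miR-125b-5p -0.68 (SE 0.27, adjusted p = 0.067). The median of the 7 was -0.68, against -0.38 for all miRNAs.

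**Figure D5:**
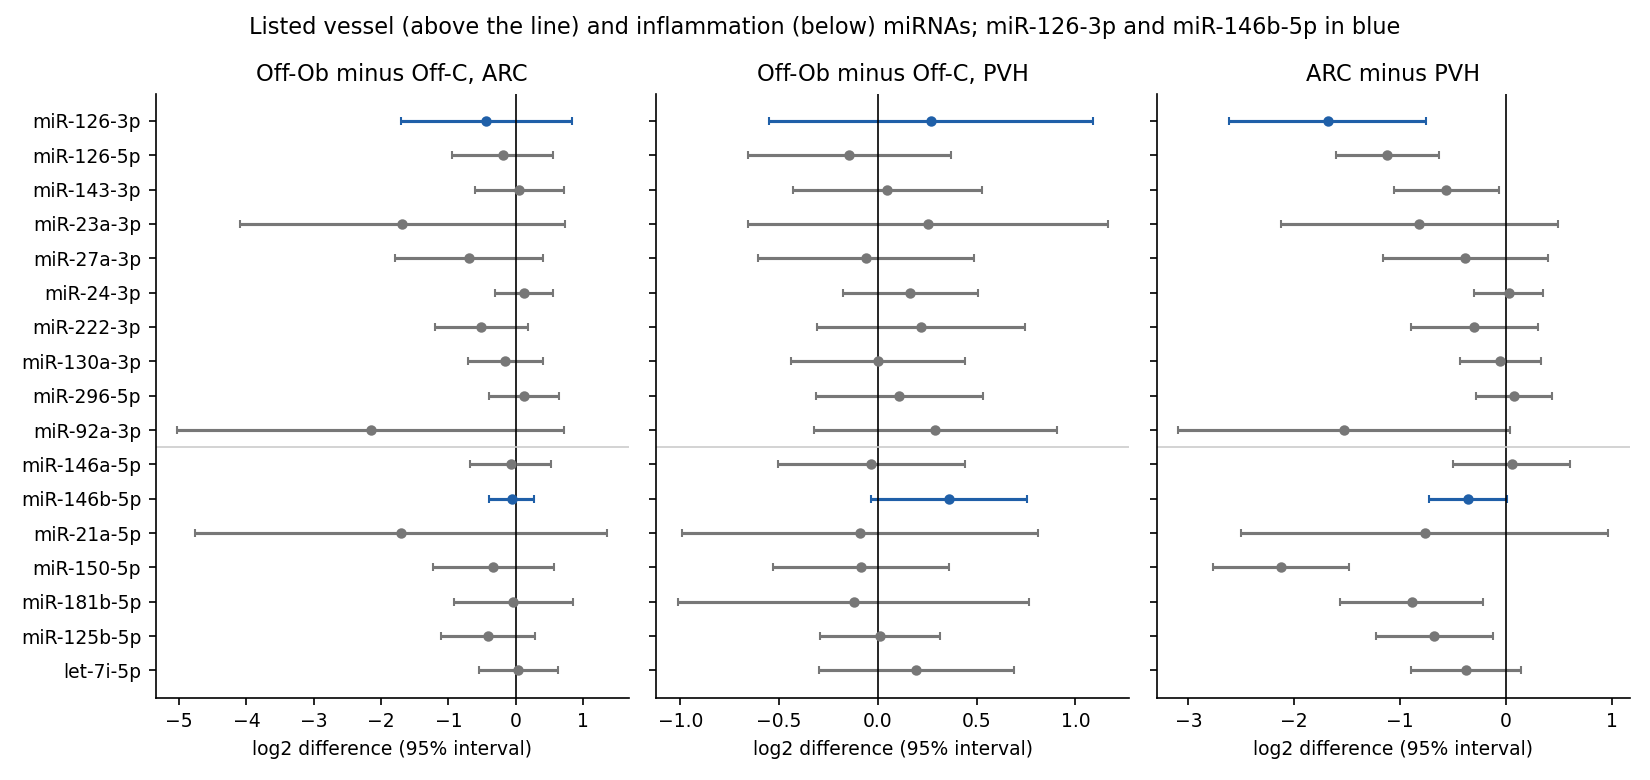
Log2 difference with its 95% interval for 10 vessel miRNAs (above the line) and 7 inflammation miRNAs (below), for Off-Ob minus Off-C in the ARC (left) and PVH (middle) and for ARC minus PVH (right); each panel has its own scale. Every interval crosses 0 in the left and middle panels, and at right those of miR-126-3p, miR-126-5p, miR-143-3p, miR-150-5p, miR-181b-5p and miR-125b-5p lie wholly below 0.

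The lists overlap in a few members, such as miR-143-3p, which also stands among the astrocyte miRNAs. Markers of other cells moved with the nucleus too, and their part in the miR-126 difference was not tested. Of 10 neuronal miRNAs 4 were higher in the PVH past the adjusted threshold, where 19.8% of all miRNAs were, 9 lay below 0, and the median was -1.07 beside -0.38 for all. Their summed level was 17895 to 28464 plain CPM in Off-C ARC libraries, 3792 to 26637 in Off-Ob ARC libraries (median 24329) and 28444 to 49344 in PVH libraries. The pituitary list had 2 of 7 measured. Of these miR-7b-5p was higher in the ARC (1.11, SE 0.21, limma adjusted p = 7.1e-04), and miR-7a-5p did not pass (0.26, SE 0.18, limma adjusted p = 0.30). The pair was abundant in both nuclei. Its median summed plain CPM was 202873 (Off-C) and 199063 (Off-Ob) for the ARC, beside 135067 (Off-C) and 154444 (Off-Ob) for the PVH. Whether the pair marks pituitary tissue in these captures was not tested. Of the oligodendrocyte list 3 of 5 were measured, with miR-219-2-3p higher in the PVH (-1.10, SE 0.36, adjusted p = 0.028). None passed among 5 astrocyte miRNAs (median -0.61) and 3 red blood cell miRNAs (median -0.74), whose summed level of 2734 to 7538 plain CPM in the ARC overlapped the 3609 to 6802 of the PVH. Of the microglia and leukocyte list 2 of 6 were measured, miR-150-5p and miR-146a-5p, so microglia had little coverage here. For maternal group no member of these 6 lists passed in either nucleus.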

How the data were processed

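The authors captured ARC and PVH tissue by laser, prepared TruSeq Small RNA libraries, mapped reads with Bowtie 1.2.3 to GRCm38 and used edgeR 3.36.0. Values were deposited as log2, log2(CPM + 1), where the denominator is the sum over the 172 listed miRNAs multiplied by a per-library factor. RPKM is the unit in the authors' methods, but no length term was found in what was deposited. The miRNA annotation and the treatment of reads that fit several miRNAs are not given in the sources used here. Columns give group and mouse and are tied to no one sample record. Each library is therefore called by its mouse. Whole reads were recovered from the values.

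Maternal groups were compared within each nucleus with limma 3.58.1 (R 4.3.3, variance trend) on the log2 scale, p-values being adjusted by Benjamini-Hochberg over 172 miRNAs, after a minimum CPM of 1 in at least 5 libraries. ARC and PVH, and the interaction with maternal group, were compared on log2(plain CPM + 1) with the mouse as a block, because the nuclei of 1 mouse are paired (consensus correlation -0.133). The fit of the maternal groups within a nucleus was checked on simulated reads, on plain CPM and so not on the deposited scale of the maternal results. In each simulated set 20 of 172 miRNAs were changed 4-fold. All miRNAs were given the same negative binomial spread, which need not match that of these data. The nucleus fit was not simulated. When the changed miRNAs were drawn from all abundances, most were recovered, but the share of false calls was several times what the adjusted threshold allows. The simulation was narrowed to miRNAs of middle abundance after that outcome was seen, with the fit unchanged. False calls then came near the threshold, below it for the ARC and above it for the PVH. The source of the excess was not tested, and calls on plain CPM, ARC against PVH included, may hold more false ones than the adjusted p states. Single miRNAs and ratios were also tested by exact permutation over libraries or mice, two-sided, and correlations by 100000 permutations, or all of them at 6 libraries (Python 3.11.15, NumPy 2.4.6, SciPy 1.17.1, matplotlib 3.10.9). p-values measure the spread between these mice. The members, lists and tests were chosen with earlier results of these data known. Named miRNAs are the members, the other arm of miR-126, miR-146a-5p, the listed miRNAs and the 5 most like each member. Hairpin positions came from GENCODE (GRCm38) and sequences from RefSeq. Alternatives were pseudocounts of 0.5 and 10, no filter, a CPM minimum of 100, plain CPM, median-ratio and quantile scaling, limma-voom, limma without trend, no mouse block, each library or mouse left out, and the ARC without F42A and F6A. Added after seeing the data were the ratios of reads, 4 correlations, Off-C libraries alone, the nucleus comparison within each maternal group, and plain CPM without F42A and F6A.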

Additional observations from a re-analysis of the deposited data

Results flagged for a closer look

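The ARC library of mouse F42A had a deposited miR-146a-5p level of 9.36 on the log2(CPM + 1) scale, apart from the other 4 Off-Ob ARC libraries, of which the nearest was at 10.40. The gap was 0.741 of the group's whole range, above Dixon's 95% critical value for 5 samples. It was the only group marked of 24 examined (both miRNAs, miR-126-5p, miR-146a-5p and both ratios in 4 groups each), and chance marks about 1 in 20. The level rests on 7 reads.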

How the results depend on the processing

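Of 465 alternative values, 404 kept the direction and the side of the threshold. The count is not a measure of robustness. Some settings could not move a value, such as no filter, which all 172 miRNAs pass, or an Off-C nucleus difference without an Off-Ob mouse. Many results were not called to begin with, and the ratios of reads entered with their unadjusted p. For maternal group in the ARC, without F42A and F6A miR-126-3p turned to 0.14 and miR-146a-5p to 0.19 (0.076 and 0.13 by plain CPM), the log2 ratio of miR-126 arms to 0.31 and that of miR-146b-5p to miR-146a-5p to -0.23. Median-ratio scaling turned miR-146b-5p to 0.040 and miR-146a-5p to 0.024, and quantile normalization to 0.025 and 0.030. Plain CPM moved the median of all ARC differences from -0.16 to -0.52, with miR-126-3p at -0.79 and miR-146b-5p at -0.42. Without both mice, the ARC against PVH difference of miR-126-3p was -1.14 (limma adjusted p = 0.055) and the interaction turned to 0.029 for miR-126-3p and 0.14 for miR-146a-5p. With the deposited values, scaled per nucleus, miR-146b-5p passed between nuclei (-0.34, adjusted p = 0.025), and 59 of 172 miRNAs passed in place of 37, while leaving out RC11A gave 22 and RC12A 20. Leaving out single mice gave -1.92 to -1.33 for miR-126-3p between nuclei. The ranges that crossed 0 were -0.36 to 0.043 for miR-126-5p by maternal group in the ARC, and for miR-146a-5p -0.17 to 0.18 in the ARC, -0.14 to 0.073 in the PVH, -0.0091 to 0.26 between nuclei and -0.50 to 0.036 for the interaction. Within 1 maternal group, miR-146b-5p turned to -0.13 in Off-C on deposited values and ranged from -0.056 to 0.11 without single mice, and miR-146a-5p in Off-Ob turned to 0.050 on deposited values and 0.38 without F42A and F6A and ranged from -0.26 to 0.28. Without F42A and F6A, miR-126-3p in Off-Ob gave -1.13 (adjusted p = 0.41) and miR-146b-5p -0.40 (adjusted p = 0.40). With no replicate block (mouse not modelled) the nucleus difference was -1.68 for miR-126-3p and -0.35 for miR-146b-5p, and no call of these changed. No paired analysis was possible for Off-Ob against Off-C because the groups are different mice and the columns carry no number that they share. Of the correlations, miR-126-3p with miR-146b-5p in the ARC gave 0.531 on deposited values and 0.937 in Off-C libraries, neither past the adjusted threshold, and in the PVH -0.0197 without the 2 farthest libraries. The miR-126 arms in the ARC gave -0.114 on deposited values, -0.178 without F42A and F6A and -0.130 in Off-C libraries, and in the PVH -0.721 on deposited values (adjusted p = 0.042). miR-146b-5p with miR-146a-5p in the ARC gave -0.285 without the 2 farthest libraries, which are F42A and F6A, and -0.109 in Off-C libraries. The cause was not tested for any of these. At 1 to 60 reads of miR-126-3p per library, counting error limits each of its values.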
